A study of Mus musculus with 10 samples.

Results

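The comparison described here is between clones of NIH3T3, a long-established fibroblast line from mouse embryos, that carry different constructs. One set of 4 clones stably overexpresses FOXP2, and the other set of 4 stably overexpresses FOXP2-CPED1, described in the series as a FOXP2 arrangement. Members were chosen by construct alone, and they are 8 of the 10 RNA sequencing libraries of the series. The remaining libraries, 1 of parental cells and 1 of cells with the vector, served only as a reference level and entered no test. The clones of a construct are independent of each other, per the series' design text, and each was sequenced once, so the error in every test is the spread between clones. The promoter, the species and length of the introduced sequences, and whether the vector cells are a clone, are unknown here. Clone numbers do not pair the clones of the constructs.

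FOXP2 is a transcription factor of the forkhead family that mostly represses its targets and is best known for its part in speech and language and in the development of brain and lung. CPED1 is a protein named for a cadherin-like and a PC-esterase domain, and variation near its gene has been linked to bone density. Their genes lie on the same chromosome in human and mouse. NIH3T3 fibroblasts secrete collagen-rich matrix, build contractile actin fibres and answer serum with a burst of immediate-early genes, so the gene groups below follow those roles.

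The table of the series gives RPKM (reads scaled by transcript length and library size) for 18430 rows. Of these, 13862 name 1 gene, and 11729 of them reached 1 RPKM in at least 2 of the 8 clones and were tested on the scale log2(RPKM + 1). The summed RPKM of a clone ran from 794682 to 944602, and its depth, read from steps among low values, from 0.913 to 1.32 of the parental library. At most 18% of those values lay on a step, so the relative depth is rough, and the absolute depth is unknown. Genes encoded by the mitochondrial genome had rows at 0 in 3 clones, namely FOXP2-CPED1 clone 3 and FOXP2 clones 2 and 4. Of 12 fibroblast markers, 10 had a row, and their summed level was 7070 to 9740 RPKM in FOXP2 clones, 7270 to 10600 in FOXP2-CPED1 clones and 10100 to 10400 in the controls. Few markers of other cell types had a row: 1 of 8 epithelial (Cdh1, at most 2.37 RPKM in any clone), 1 of 6 endothelial (Cdh5, at most 0.536), 1 of 8 muscle (Des, at most 3.34), 1 of 8 neuronal and 2 of 6 adipocyte markers. Of 10 blood and immune markers 1 had a row, Lyz2, at 13.6 to 23.1 RPKM in FOXP2 clones, 15.02 to 33.7 in FOXP2-CPED1 clones and 22.6 to 25.7 in the controls. None of the markers tested had an unadjusted limma p under 0.05. In these bulk libraries, fewer cells of a kind and less RNA per cell cannot be told apart.

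The genes that the constructs are named for were read first. The mouse Foxp2 row stood at 0.217, 0.365, 0.145 and 1.02 RPKM in FOXP2 clones 1 to 4 and at 0.161, 0.169, 0.0674 and 0.330 RPKM in FOXP2-CPED1 clones 1 to 4. Parental and vector cells had 0.0798 and 0.0785 RPKM. FOXP2 clone 4 was the highest, the constructs overlapped, and FOXP2-CPED1 clone 3 was below both controls. The log2 difference, here and below FOXP2-CPED1 minus FOXP2, was -0.25 for Foxp2 (two-sided exact permutation test over the 8 clones, p = 0.2286). Foxp2 reached 1 RPKM in a single clone and so was not among the tested rows; in a limma fit of unfiltered rows its adjusted p was 1.

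The mouse Cped1 row stood at 31.0, 6.43, 16.3 and 25.8 RPKM in FOXP2 clones 1 to 4, at 16.8, 21.5, 25.4 and 6.69 in FOXP2-CPED1 clones 1 to 4, and at 24.2 and 27.0 in the parental and vector cells. FOXP2 clone 2 and FOXP2-CPED1 clone 4 were low, and the other clones lay around or under the control level with full overlap of the constructs. Its log2 difference was -0.11, with a 95% interval from -1.26 to 1.04 (exact permutation p = 0.8571). The difference was 0.16 when FOXP2 clone 1 was left out, 0.08 without FOXP2 clone 4 and 0.27 once FOXP2-CPED1 clone 4 was left out. Since the species of the introduced sequence is not given, neither row checks the labels.

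No row separated the constructs after adjustment. By limma, 0 of 11729 rows (0%) had an adjusted p under 0.05; the smallest was 0.7445, for Abhd14a. An unadjusted limma p under 0.05 was reached by 197 rows (1.68%), of which 104 (0.887%) were higher and 93 (0.793%) lower in FOXP2-CPED1 clones. The values of all 4 clones of a construct lay above or below those of the other for 161 rows (1.37%), with 67 (0.571%) higher and 94 (0.801%) lower in FOXP2-CPED1 clones. With no difference between constructs, a share of about 0.05 of rows would reach such a p by chance. A share of about 0.0286 would lie apart by chance. Both observed shares were lower. Adjusted calls stayed at 0 in every other limma fit run except the fit with library quality weights, which called Gm7665 and Abhd14a higher, and the fit without FOXP2-CPED1 clone 2, which called Gm12079 higher. The number with an unadjusted p under 0.05 was 529 without FOXP2 clone 2, 402 without clone 3 of that construct and 349 without FOXP2-CPED1 clone 4. With library quality weights it was 2148 (18.3%). That fit gave FOXP2 clone 1 a weight of 7.86 and the other FOXP2 clones 0.243 to 0.705. Its FOXP2 side therefore rested mostly on a single clone, here and wherever that fit is cited below.

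The size of the difference was small for most rows. The median log2 difference over all tested rows was -0.01 and the median of its absolute value 0.10, with 5491 rows (46.8%) on the higher side. Of all rows, 81 (0.691%) differed by 1 or more on the log2(RPKM + 1) scale, 54 of them higher and 27 lower. Here and below, 2-fold means 1 on that scale, which is 2-fold in RPKM + 1. Rows with low levels can differ by more in RPKM: Actg2 had a ratio of means of 3.27 at a log2 difference of 0.99. For 10250 rows (87.4%) the 95% interval of the difference lay within 1 on that scale. Among the 8642 rows with a mean of at least 5 RPKM, 7888 (91.3%) did so. With 0.1 in place of 1 added to RPKM, 9073 of all tested rows (77.4%) did so. The interval, which is not adjusted for the number of rows, reached 0.45 to either side at the median and over 1 for 660 rows. In those 660 rows a measured 2-fold difference could not reach an unadjusted p under 0.05. The adjusted test was stricter for all rows. Nck2 and Abhd14a, with narrower intervals and log2 differences of -1.04 and 1.42, did not pass it (limma adjusted p = 0.9999 and 0.7445).

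**Figure D1:**
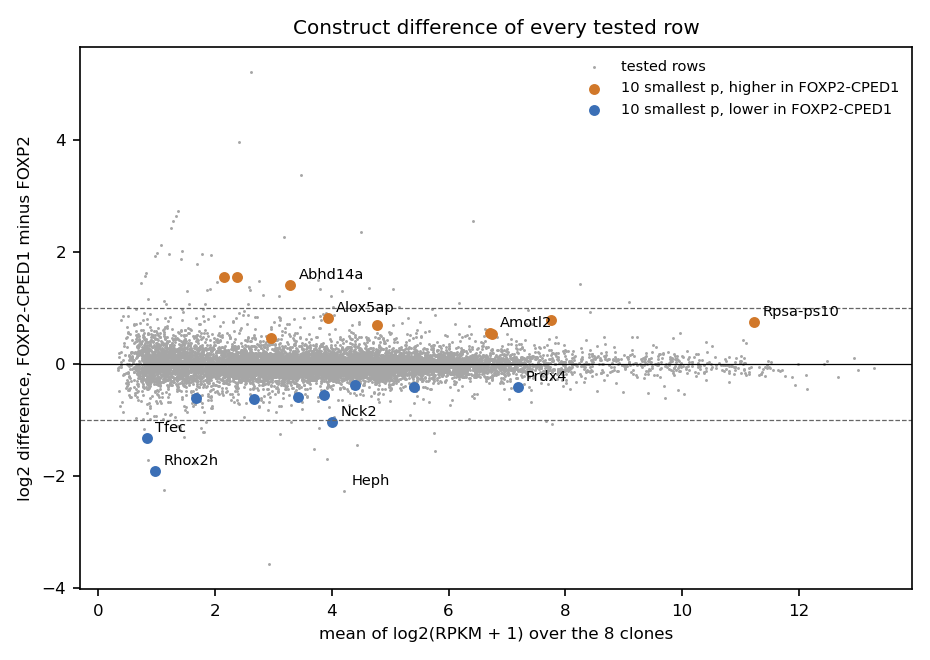
The log2 difference between constructs (vertical) against the mean level of log2(RPKM + 1) over the 8 clones (horizontal) for each of the 11729 tested rows (grey). Dashed lines mark 2-fold in RPKM + 1, and coloured points are the named genes with the 10 smallest p in each direction. Most rows lie near 0, and no row passed the adjusted test.

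Most of the variance lay between clones of the same construct. The first principal component of the 8 clones held 35.5% of the variance and the second 22%. On the first, FOXP2 clone 2 (35.3) and FOXP2-CPED1 clone 4 (38) stood together at one end, and FOXP2 clone 3 (-37.8) at the other. Across tested rows, which are not independent replicates, the Pearson correlation between libraries had a median of 0.952 among FOXP2 clones, 0.962 among FOXP2-CPED1 clones and 0.959 between constructs. The most similar library carried the other construct for 5 of the 8 clones: FOXP2 clone 1 was closest to FOXP2-CPED1 clone 2 (0.979) FOXP2 clone 2 was closest to FOXP2-CPED1 clone 4 (0.969), each pair in both directions, and FOXP2 clone 3 to FOXP2-CPED1 clone 3 (0.973). The construct accounted for a median of 4.25% of a row's variance over the 8 clones.

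**Figure D2:**
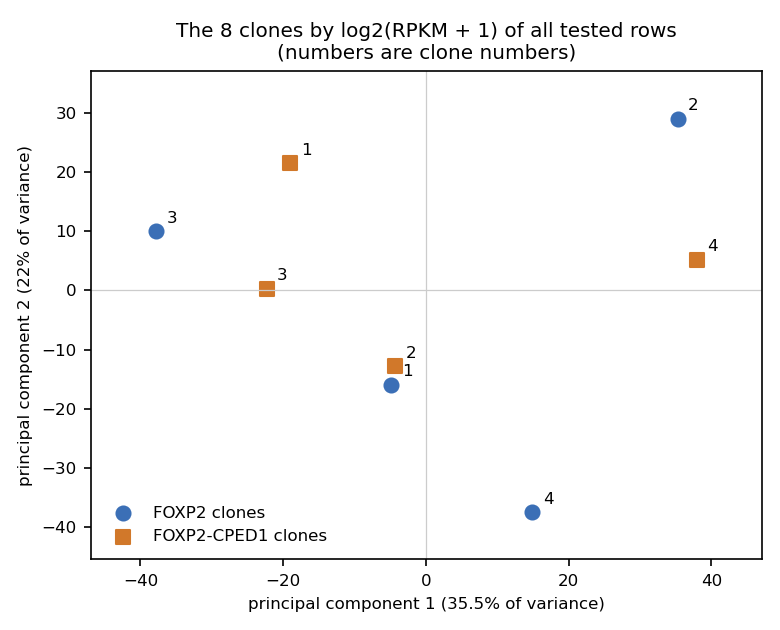
The 8 clones on the first (horizontal, 35.5% of variance) and second (vertical, 22%) principal components of log2(RPKM + 1), in arbitrary units. FOXP2 clones (circles) and FOXP2-CPED1 clones (squares) are interspersed, and FOXP2 clone 2 and FOXP2-CPED1 clone 4 lie at the right.

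The spread between clones was larger in the FOXP2 set with all clones in, and the size of this gap depended on single clones of both sets. The median SD of a row on the log2 scale was 0.306 among FOXP2 clones and 0.229 among FOXP2-CPED1 clones, and 8083 rows (68.9%) had the larger SD among FOXP2 clones. Rows at least 2-fold from the median of the other clones numbered 959 in FOXP2 clone 2, 790 in clone 3 and 639 in clone 4 of that construct, and 858 in FOXP2-CPED1 clone 4. The remaining clones had 223 to 330 such rows. Without FOXP2 clone 2 alone, 49.6% of rows had the larger SD among FOXP2 clones, and the median SDs were 0.22 and 0.228. Without FOXP2-CPED1 clone 4 alone, 79.7% of rows did, and the median SDs were 0.305 among FOXP2 and 0.162 among FOXP2-CPED1 clones. Without the 3 clones whose mitochondrial rows were at 0, 4540 of 11430 rows had the larger SD among FOXP2 clones. That fit holds only FOXP2 clones 1 and 3, against FOXP2-CPED1 clones 1, 2 and 4. An SD from fewer clones is more often the smaller, so both shares with FOXP2 clones left out lean low. They cannot show a reversal. The share without FOXP2-CPED1 clone 4 leans high for the same reason.

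The named rows with the smallest p are given next, with their values by clone. They were picked by p after leaving out clone or model names, small RNAs and means under 2 RPKM. None passed the adjusted test. Of all tested rows, 2 had a limma adjusted p under 0.9. Abhd14a was 1 of them, and the other was not eligible for naming. Abhd14a, which encodes an alpha/beta hydrolase domain protein, stood at 3.67, 4.41, 6.64 and 5.64 RPKM in FOXP2 clones 1 to 4 and at 17.9, 17.9, 13.5 and 11.5 RPKM in FOXP2-CPED1 clones 1 to 4. All FOXP2-CPED1 clones were above all FOXP2 clones, and the parental and vector cells, at 8.41 and 14.2 RPKM, lay between or among them. Means were 5.09 ± 1.32 (SD, n = 4) and 15.2 ± 3.22 (n = 4), with a log2 difference of 1.42 ± 0.20 (SE; limma adjusted p = 0.7445). In the fit with library quality weights, whose FOXP2 side rested mostly on clone 1, the difference was 1.73 (limma adjusted p = 0.01295). The gene overlaps Abhd14b on the opposite strand, the strand setting of the counting is not given, and Abhd14b differed by -0.04.

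Amotl2, an angiomotin family scaffold that binds YAP at cell junctions, stood at 87.1, 110.7, 78.7 and 75.9 RPKM in FOXP2 clones and at 121.5, 131.5, 115.7 and 144.2 in FOXP2-CPED1 clones, clones 1 to 4 in each case. The sets did not overlap, and both were under the controls, at 190.2 and 197.0 RPKM. The log2 difference of Amotl2 was 0.55 ± 0.15 (SE; limma adjusted p = 0.9999).

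Genes of mitochondrial enzyme subunits, and of a protein that serves a lipid enzyme, were also among the 10 named with the smallest p on the higher side. Ndufc1, a subunit of respiratory complex I, had 17.7, 24.9, 22.1 and 18.2 RPKM in FOXP2 clones 1 to 4 and 50.5, 25.9, 29.9 and 34.3 in FOXP2-CPED1 clones 1 to 4. Its sets did not overlap, with FOXP2-CPED1 clone 1 far above the rest (log2 difference 0.70, limma adjusted p = 0.9999). Atp5k, a subunit of the mitochondrial ATP synthase, had a mean of 85.4 ± 14.9 RPKM in FOXP2 and 126.9 ± 19.8 in FOXP2-CPED1 clones (SD, n = 4 each), also without overlap. A separate list of 32 oxidative phosphorylation genes, which holds neither Ndufc1 nor Atp5k, had a median difference of -0.01, with 16 on each side. In that list 14 were higher after quantile normalization and 27 without the 3 clones with mitochondrial rows at 0. Alox5ap, the protein that hands arachidonate to 5-lipoxygenase, had 9.93, 12.6, 14.2 and 6.54 RPKM in FOXP2 clones and 26.7, 14.9, 19.7 and 17.4 in FOXP2-CPED1 clones (log2 difference 0.83). The FOXP2-CPED1 clones were all higher, and the controls stood at 24.0 and 26.4 RPKM.

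The other rows on this side were the RNA-binding repressor Samd4 (log2 difference 0.48), the processed pseudogenes Rps19-ps6 (0.80) and Rpsa-ps10 (0.76), and the vomeronasal receptor genes Vmn1r139 (1.55) and Vmn1r132 (1.56). Each was without overlap between constructs. Pseudogenes and vomeronasal receptors share sequence with near-identical copies, so their levels are uncertain. Rows of pseudogenes as a class had an unadjusted p under 0.05 in 5.07% of 966 rows, with 38 higher and 11 lower. Protein-coding rows did in 1.29% of 10171, with 53 higher and 78 lower. The pseudogene share was near the 0.05 that this threshold gives by chance.

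On the lower side, Nck2, an SH2 and SH3 adaptor between tyrosine kinases and actin, stood at 23.1, 16.4, 25.9 and 24.0 RPKM in FOXP2 clones 1 to 4 and at 7.43, 13.2, 12.9 and 8.62 in FOXP2-CPED1 clones 1 to 4. The constructs did not overlap, and the controls, at 19.1 and 17.8 RPKM, lay between their means. The means were 22.3 ± 4.14 and 10.5 ± 2.93 RPKM (SD, n = 4 each), and the log2 difference was -1.04 ± 0.22 (SE; limma adjusted p = 0.9999). Neighbouring genes differed little: Uxs1, which makes UDP-xylose, by -0.13, and Fhl2, a LIM-domain protein, by 0.04.

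Tspan5, a tetraspanin that guides the protease ADAM10, had 49.4, 49.3, 44.7 and 47.0 RPKM in FOXP2 clones and 31.7, 37.7, 41.3 and 33.0 in FOXP2-CPED1 clones. Its sets were apart, by a log2 difference of -0.40. Prdx4, the peroxiredoxin of the endoplasmic reticulum, had 151.9, 177.8, 174.9 and 159.8 RPKM against 115.6, 147.2, 128.3 and 112.7, again without overlap and by -0.40. The long noncoding RNA Crnde (-0.60), the tRNA-modifying enzyme Tyw3 (-0.62) and Ott (-0.37) were apart as well. The RNA-binding protein Msi1 (-0.55) and the CoREST-family corepressor Rcor2 (-0.59) overlapped in their range. All of these had limma adjusted p = 0.9999. The nearest genes in gene order were all lower beside Ott, from -0.63 for Gm15127 to -0.28 for Gm15114. Beside Prdx4 they were all lower as well, from -0.66 for Sat1 to -0.01 for Gm15163.

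Tfec, a basic helix-loop-helix factor of the MITF family, lies close to Foxp2 in gene order, with Mdfic between them. Tfec stood at 0.464, 1.61, 1.46 and 5.58 RPKM in FOXP2 clones 1 to 4, at 0.0625, 0.373, 0.0243 and 0.0882 in FOXP2-CPED1 clones 1 to 4, and at 0.115 and 0.0289 in the controls. FOXP2 clones were all higher, FOXP2 clone 4 most so, which was also the clone with the highest Foxp2. The log2 difference of Tfec was -1.31 ± 0.41 (SE; limma adjusted p = 0.9999), against -0.15 for Mdfic, whose clones overlapped. Tfec passed the filter through its FOXP2 clones alone, as did Rhox2h of the Rhox homeobox cluster, which had 4.03, 2.76, 0 and 10.1 RPKM in FOXP2 clones and at most 0.0595 in FOXP2-CPED1 clones.

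**Figure D3:**
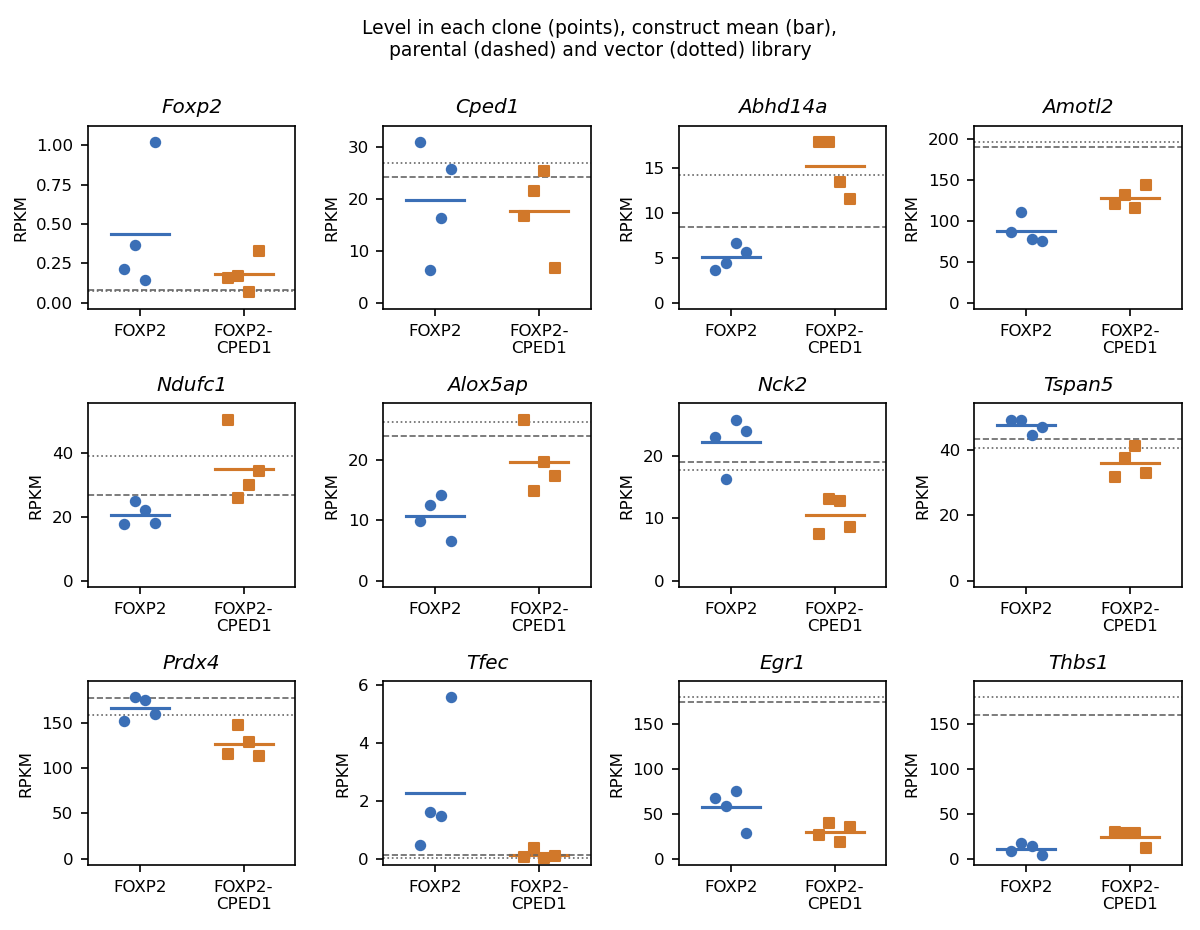
RPKM (vertical, linear, each panel on its own scale) of 12 genes in each of the 4 FOXP2 (circles) and 4 FOXP2-CPED1 clones (squares), with the construct mean as a bar and the parental (dashed) and vector (dotted) library as lines. Abhd14a, Amotl2, Ndufc1, Alox5ap, Nck2, Tspan5, Prdx4 and Tfec show no overlap of the clones, while Foxp2, Cped1, Egr1 and Thbs1 overlap.

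The largest differences of the construct means came mostly from 1 or a few clones. Heph, the ferroxidase hephaestin, had 45.6, 47.9, 33.6 and 32.4 RPKM in FOXP2 clones 1 to 4 and 7.96, 0.00352, 19.8 and 25.8 in FOXP2-CPED1 clones 1 to 4. All FOXP2-CPED1 clones were lower, with clone 2 near 0, and the controls themselves differed, at 7.88 in parental and 39.0 in vector cells. The log2 difference of -2.26 had a 95% interval from -4.26 to -0.26 (limma adjusted p = 0.9999), and it was -1.24 without FOXP2-CPED1 clone 2.

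Other rows with a wide difference or widely spread clones mostly had clones listed at or near 0. The mitochondrial gene mt-Nd6, at 0 in FOXP2 clones 2 and 4 and FOXP2-CPED1 clone 3, had the largest named difference, 2.55 (95% interval -4.63 to 9.73). Ang-ps1 was at 15.9 and 28.6 RPKM in FOXP2 clones 1 and 4 and at or near 0 in the other clones (-2.24). Rpl38-ps1 was at 44.0 and 3.84 RPKM in FOXP2-CPED1 clones 2 and 4 and at 0 in the other clones (1.94). Mast2, a microtubule-associated kinase, was 26.4 to 34.7 RPKM in FOXP2-CPED1 clones 1 to 3 and near 0 in clone 4, as in the vector library, and had a log2 difference of -1.45 (-0.21 without that clone). Paics, an enzyme of purine synthesis, was at 21.2 RPKM in FOXP2 clone 2, at 4.07 in FOXP2 clone 3 and near 0 in the remaining clones. Krtdap was at 2.45, 0, 16.8 and 6.15 RPKM in FOXP2-CPED1 clones 1 to 4 and at most 0.484 in FOXP2 clones. Paics and Ang-ps1 passed the filter through FOXP2 clones alone, and Krtdap and Rpl38-ps1 through FOXP2-CPED1 clones alone. Gpnmb, a transmembrane glycoprotein, varied widely among FOXP2-CPED1 clones, at 232.5, 15.4, 160.1 and 3.14 RPKM, while FOXP2 clones had 27.5, 14.7, 3.35 and 29.0. Grb10, an imprinted adaptor of growth factor receptors, varied widely among FOXP2 clones, at 72.9, 22.6, 0.0398 and 74.5 RPKM. Its log2 difference between constructs was only 0.16. A value at 0 in such a table can be a failed estimate, and the rows named in this paragraph had limma adjusted p = 0.9999.

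Groups of genes were then described by the members' differences, beside a median of -0.01 and 46.8% on the higher side over all rows. The 42 lists held 701 tested genes, of which 14 had an unadjusted limma p under 0.05, 8 higher and 6 lower, and 7 had no overlap between constructs. That is a share near the background of 1.68% and 1.37%. The higher ones were Myl9, Amotl2, Thbs1, Cdh11, Plxnd1, Rrm2b, Eed and Rps29, and the lower ones Klf2, Egr1, Nsdhl, Scd1, Tfec and Ing3. For 41 of the lists the mean deviation of a clone's members, called its score below, overlapped between the constructs, and for the remaining list, the neighbours of Foxp2 and Cped1, it did so once Tfec was left out.

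**Figure D4:**
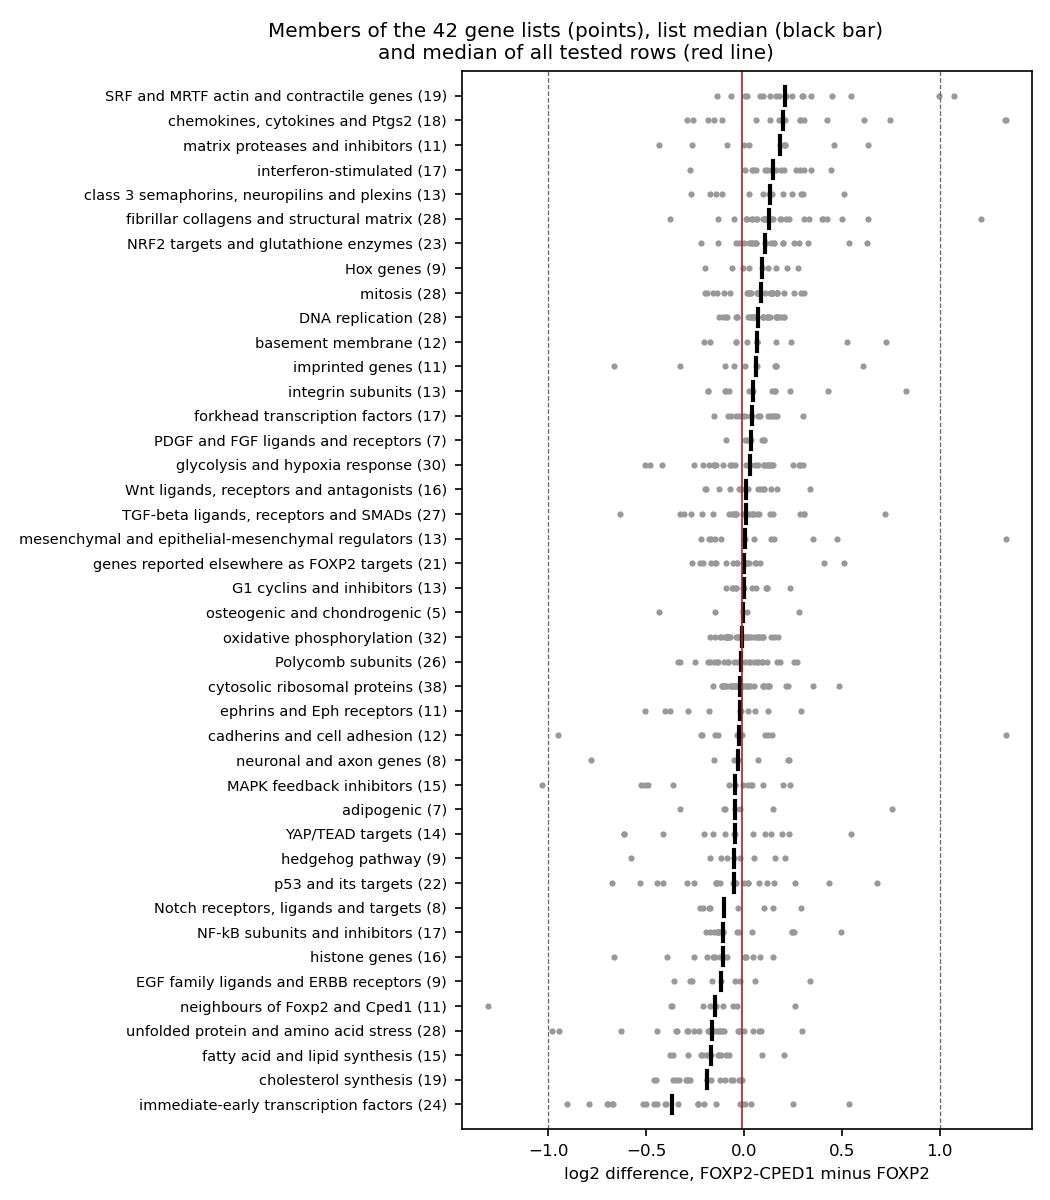
The log2 difference (horizontal) of each tested member (grey points) of the 42 gene lists (vertical, number of tested members in brackets), with the list median as a black bar and the median of all rows as a red line. Dashed lines mark 2-fold; medians run from -0.37 for immediate-early transcription factors to 0.21 for SRF and MRTF genes.

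Immediate-early transcription factors, which serum and MAP kinase signals induce within minutes, had the lowest median of the 42 lists, at -0.37. Of 24 measured members, 20 were on the lower side and 4 on the higher side, and 0 passed the adjusted limma test. With library quality weights 17 of 24 were lower, and without the 3 clones with mitochondrial rows at 0 it was 14 of 23. The list's clone scores overlapped, with FOXP2 clone 4 at -0.13 and FOXP2-CPED1 clone 4 at 0.18. Egr1, a zinc finger factor, stood at 67.6, 58.4, 75.8 and 28.8 RPKM in FOXP2 clones 1 to 4 and at 25.8, 40.1, 18.3 and 34.7 in FOXP2-CPED1 clones 1 to 4. The sets overlapped through FOXP2 clone 4, and all were under the controls, at 174.3 and 179.6 RPKM; the log2 difference was -0.91 (limma adjusted p = 0.9999). Klf2, a Krüppel-like factor, had 52.4, 57.1, 52.6 and 42.8 RPKM against 32.5, 38.5, 33.3 and 45.6 (log2 difference -0.45), with an overlap by FOXP2-CPED1 clone 4.

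The AP-1 subunits were not of 1 sign. Fos had 13.9, 7.43, 28.5 and 11.9 RPKM in FOXP2 clones and 6.15, 12.1, 4.92 and 8.65 in FOXP2-CPED1 clones (log2 difference -0.79). Fosl2 was on the other side, with 28.1, 27.2, 60.9 and 21.02 against 49.8, 45.6, 51.6 and 39.1 RPKM (0.54). Both overlapped. The list's median ran from -0.53 to -0.22 over the alternative fits and did not change sign.

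Upstream and feedback parts of that pathway showed less. Of 15 MAPK feedback inhibitors, 9 were lower and 6 higher (median -0.05, or 0.00 with 8 higher after quantile normalization), led by Dusp8 (-0.53) and Spry2 (-0.49), a phosphatase of MAP kinases and a receptor kinase inhibitor. Dusp4, another such phosphatase, had a larger difference (-1.03) and wide clones, at 3.38 to 27.0 RPKM in FOXP2 clones and 3.37 to 5.29 in FOXP2-CPED1 clones 1 to 3, with clone 4 above those. Of 9 EGF family ligands and ERBB receptors, 7 were lower (median -0.12), with the receptor Egfr itself on the higher side (0.34). Their median was 0.03 without the 3 clones with mitochondrial rows at 0 and 0.06 without FOXP2 clone 2. The 7 PDGF and FGF genes had a median of 0.04 with 6 higher, but -0.32 with 2 higher without the 3 clones with mitochondrial rows at 0.

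Actin and contractile genes under SRF and its cofactors had the highest median, 0.21, with 17 of 19 members on the higher side and 0 past the adjusted limma test. Myl9, the regulatory light chain of smooth muscle myosin, had 3.04, 5.12, 1.92 and 2.73 RPKM in FOXP2 clones 1 to 4 and 4.50, 9.52, 5.12 and 13.9 in FOXP2-CPED1 clones 1 to 4. Only FOXP2 clone 2 reached into the range of FOXP2-CPED1 clones, and both sets lay under the controls, at 29.4 and 25.8 RPKM (log2 difference 1.07, limma adjusted p = 0.9999). Actg2, the enteric smooth muscle actin, had 0.760, 2.38, 0.314 and 0.723 RPKM against 0.693, 5.06, 1.98 and 5.96 (0.99). The highest clone score of this list was 0.56 in FOXP2-CPED1 clone 4 and the lowest -0.52 in FOXP2 clone 3; Acta2, the vascular smooth muscle actin, was at 413.7 and 28.6 RPKM in them. The median was 0.05 to 0.44 over the alternative fits.

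YAP/TEAD targets were split, with 6 higher and 8 lower of 14 (median -0.05), or 10 higher without the 3 clones with mitochondrial rows at 0. Amotl2, described above, was on the higher side, while the matricellular genes Cyr61 (-0.62) and Ctgf (-0.62) were on the lower side. Cyr61 had 151.2, 188.3, 102.2 and 233.8 RPKM in FOXP2 clones and 95.9, 113.5, 50.3 and 221.4 in FOXP2-CPED1 clones, which overlapped widely. Its difference was 0.11 without the 3 clones with mitochondrial rows at 0.

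Among fibrillar collagens and other structural matrix genes, 25 of 28 were on the higher side, by small amounts (median 0.13). Thbs1, a matricellular glycoprotein, had 8.20, 17.2, 14.3 and 3.63 RPKM in FOXP2 clones 1 to 4 and 29.8, 28.2, 28.2 and 12.1 in FOXP2-CPED1 clones 1 to 4. FOXP2-CPED1 clones 1 to 3 were above all FOXP2 clones and clone 4 was not, and all were far under the controls, at 160.2 and 179.5 RPKM (log2 difference 1.21, limma adjusted p = 0.9999). Lox, the collagen cross-linking oxidase, had 841.6, 608.2, 715.4 and 561.0 RPKM against 839.0, 842.3, 924.5 and 736.9 (0.31). Col1a1 differed by 0.23 and Col1a2, the other chain of type I collagen, by 0.15. The list's score was -0.46 in FOXP2-CPED1 clone 4 and 0.25 to 0.32 in the other FOXP2-CPED1 clones, and its median was -0.06, with 13 higher, without the 3 clones with mitochondrial rows at 0.

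Other genes at the cell surface and in the matrix were less uniform. Basement membrane genes (8 of 12 higher, median 0.07), integrins (8 of 13, 0.04) and matrix proteases and their inhibitors (7 of 11, 0.19) had more members on the higher side. Basement membrane genes were 4 of 12 higher (median -0.11) without the 3 clones with mitochondrial rows at 0, and integrins 5 of 13 (median -0.11) with library quality weights. Plau, the urokinase plasminogen activator, was at 17.9 RPKM in FOXP2-CPED1 clone 4 and at 2.84 to 6.63 in the other 7 clones; its log2 difference of 0.63 was 0.22 without that clone. Itga5, the fibronectin receptor subunit, had close clones, at 49.8, 57.3, 51.0 and 49.1 against 55.1, 57.9, 57.2 and 61.5 RPKM (0.16). Cdh11, a mesenchymal cadherin, had 1.58, 0.972, 0 and 5.26 RPKM in FOXP2 clones and 7.98, 3.00, 5.92 and 4.24 in FOXP2-CPED1 clones (1.34), overlapping through FOXP2 clone 4. The protocadherin Pcdh9 was on the other side (-0.95), and the 12 cadherin and adhesion genes had a median of -0.02.

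Signalling pathways of development had medians near that of all rows. These were 0.01 for 27 TGF-beta genes, 0.01 for 16 Wnt genes (just under 0 after quantile normalization), -0.10 for 8 Notch genes, -0.05 for 9 hedgehog genes and -0.02 for 11 ephrins and Eph receptors. Each of these medians changed sign under some alternative fit, and that of the Notch genes was 0.15 with library quality weights. Lef1, a transcription factor of the Wnt pathway, was low and without overlap, at 1.32, 1.15, 1.18 and 0.972 RPKM in FOXP2 clones and 2.41, 1.46, 1.45 and 1.66 in FOXP2-CPED1 clones (log2 difference 0.34). Ltbp1, which stores latent TGF-beta in matrix, differed by -0.64, and the hedgehog effector Gli2 by -0.58, both overlapping. The 13 class 3 semaphorin, neuropilin and plexin genes had a median of 0.13, which was -0.10 without the 3 clones with mitochondrial rows at 0. Among them the receptor Plxnd1 had 22.5, 16.7, 34.3 and 21.7 RPKM against 38.1, 31.6, 35.3 and 28.6 (0.51), with FOXP2 clone 3 inside the FOXP2-CPED1 range.

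All 19 measured cholesterol synthesis genes were on the lower side in FOXP2-CPED1 clones, or 18 after quantile normalization and 17 after median ratio scaling, with a median of -0.19. By limma 0 of them passed the adjusted test, and 1, Nsdhl, had an unadjusted p under 0.05. Nsdhl, a sterol dehydrogenase, had 21.2, 17.1, 10.5 and 17.7 RPKM in FOXP2 clones 1 to 4 and 9.89, 10.8, 12.7 and 12.6 in FOXP2-CPED1 clones 1 to 4 (log2 difference -0.46). Dhcr7, which completes the pathway, had 24.6, 22.0, 16.5 and 27.2 against 17.6, 18.6, 16.9 and 15.9 RPKM (-0.35). In both, FOXP2 clone 3 fell among FOXP2-CPED1 clones, and the controls, at 7.03 and 7.39 for Nsdhl, were lower still. The score of the list was -0.50 in FOXP2 clone 3 and 0.19 to 0.41 in the other FOXP2 clones, and 0.22 in FOXP2-CPED1 clone 3 against -0.25 to -0.19 in its other clones.

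Fatty acid and lipid synthesis genes ran the same way, with 13 of 15 lower and a median of -0.17. Scd1, a stearoyl-CoA desaturase, had 62.7, 44.2, 47.3 and 44.7 RPKM against 32.7, 40.0, 46.3 and 33.2 (-0.38), and its relative Scd2 differed by -0.29. Genes of both lists are known targets of the SREBP factors. Their medians kept their sign in the fits run, from -0.38 to -0.09 and from -0.28 to -0.11. Glycolysis and hypoxia genes had a median of 0.03, with 17 higher and 13 lower of 30.

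Stress responses went both ways and rested on a few clones. Of 28 unfolded protein and amino acid stress genes, 23 were lower (median -0.16). Trib3 and Chac1, targets of the ATF4 pathway, differed by -0.98 and -0.94, but FOXP2 clone 4 (103.5 and 70.8 RPKM) and FOXP2-CPED1 clone 4 (46.1 and 59.6) were the highest of their sets, and the list's median was 0.09, with 22 higher, without the 3 clones with mitochondrial rows at 0. NRF2 targets and glutathione enzymes were higher in 19 of 23 (median 0.11), or in 10 with library quality weights (median -0.02), with the lowest score, -0.48, in FOXP2 clone 3. Gsta4, a glutathione transferase, was at 150.2, 119.97, 43.8 and 46.4 RPKM against 141.6, 148.2, 81.1 and 127.3 (0.63, and -0.20 with library quality weights).

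Of 22 genes of the p53 pathway, 8 were higher and 14 lower (median -0.05). The count higher was 13 (median 0.13) without the 3 clones with mitochondrial rows at 0 and 3 (median -0.25) with library quality weights. Rrm2b, a ribonucleotide reductase subunit that p53 induces, was at 58.3, 64.4, 66.6 and 63.8 RPKM in FOXP2 clones 1 to 4 and at 91.6, 105.1, 70.9 and 156.8 in FOXP2-CPED1 clones 1 to 4. Its sets did not overlap and the FOXP2 clones were close together (log2 difference 0.68, limma adjusted p = 0.9999). The antiproliferative gene Btg2 was on the other side (-0.68), with overlap.

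Cell cycle genes varied between clones of the same construct. The score of 28 DNA replication genes was 0.87 for FOXP2 clone 2 and 0.66 for FOXP2-CPED1 clone 4, against -0.72 in FOXP2 clone 3 and -0.36 to -0.02 in the others. Rrm1, the large ribonucleotide reductase subunit, followed at 51.8, 78.1, 27.3 and 45.1 RPKM in FOXP2 clones and 46.9, 47.0, 42.9 and 84.9 in FOXP2-CPED1 clones. Between constructs the median was 0.07 for replication and 0.09 for 28 mitosis genes, with 21 and 22 members higher. Both were negative without FOXP2 clone 3 (replication -0.17) and without FOXP2-CPED1 clone 4 (mitosis -0.13), and without the 3 clones with mitochondrial rows at 0 they were 0.58 and 0.49. Ccnd3, a G1 cyclin, was without overlap, at 51.8, 52.4, 54.0 and 52.7 against 67.0, 65.2, 56.8 and 60.5 RPKM (0.24). Histone genes had a median of -0.11, with 10 of 16 lower.

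Chemokines and cytokines were the widest list between clones, with scores from -0.93 in FOXP2 clone 4 to 0.98 in FOXP2 clone 3. Saa3, an acute-phase protein, was at 8.07, 11.6, 270.7 and 5.08 RPKM in FOXP2 clones and 253.1, 23.7, 68.0 and 16.8 in FOXP2-CPED1 clones. The chemokine Ccl5 was highest in FOXP2-CPED1 clone 4, at 46.0 RPKM, and 1.53 to 8.38 in the other 7 clones. Over the list, 13 of 18 were higher (median 0.20), and interferon-stimulated genes were higher in 16 of 17 (median 0.15, largest Ifit1 at 0.45). Without the 3 clones with mitochondrial rows at 0, these medians were -0.12 and -0.14, with 5 and 6 higher. The 17 NF-kB subunits and inhibitors had a median of -0.11, or 0.07 without FOXP2 clone 3.

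**Figure D5:**
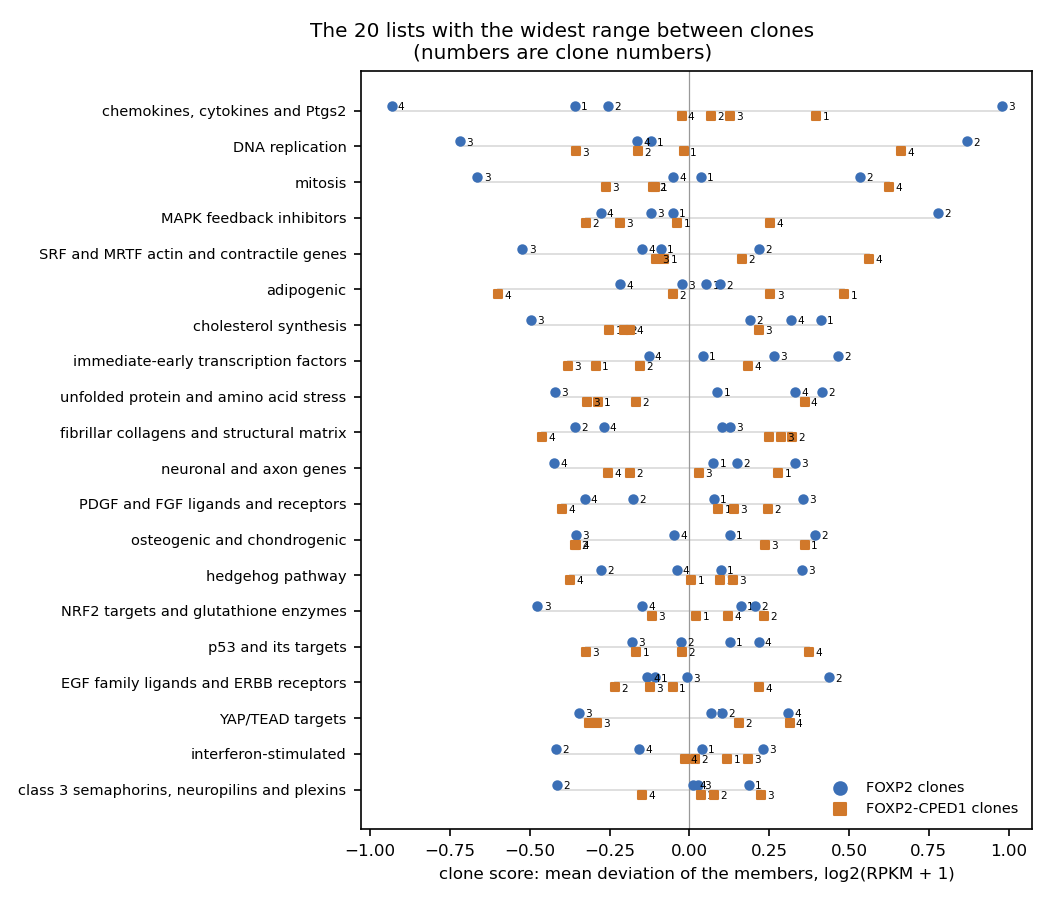
Clone scores (horizontal), the mean over a list's tested members of log2(RPKM + 1) minus the member's mean over the 8 clones, for the 20 lists with the widest range (vertical). FOXP2 clones (circles) and FOXP2-CPED1 clones (squares) carry their clone number; the sets overlap in each list shown, and FOXP2-CPED1 clone 4 and FOXP2 clones 2 and 3 are often at the ends.

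Genes tied to FOXP2 itself showed no separation as lists. The 17 measured forkhead factors had a median of 0.04 (-0.08 without the 3 clones with mitochondrial rows at 0), with the largest difference in Foxs1 (0.30); Foxp4, the measured close relative of FOXP2, had 21.6, 23.5, 21.7 and 21.04 RPKM in FOXP2 clones and 25.2, 24.0, 18.97 and 25.7 in FOXP2-CPED1 clones (0.08). Of 21 genes that other work has reported as FOXP2 targets, 11 were higher and 10 lower (8 and 13 after quantile normalization), with a median of 0.00 and 1 (Plxnd1) at an unadjusted limma p under 0.05.

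For neighbours of Foxp2 and Cped1 in gene order the clone scores were apart with Tfec and overlapped without it. With all 11 members the scores ran from -0.03 to 0.41 in FOXP2 clones and from -0.21 to -0.07 in FOXP2-CPED1 clones, without overlap, and 10 of 11 were on the lower side (median -0.15). Tfec passed the filter through its FOXP2 clones alone. Over the 10 other members the scores ran from -0.08 to 0.27 in FOXP2 clones and from -0.19 to -0.01 in FOXP2-CPED1 clones, with FOXP2 clone 3 inside the FOXP2-CPED1 range. Ing3, a subunit of the NuA4 acetyltransferase, had 11.8, 9.89, 12.2 and 11.5 RPKM against 8.43, 7.82, 11.2 and 7.15 (log2 difference -0.37), with FOXP2-CPED1 clone 3 among the FOXP2 clones. Cav1, the main coat protein of caveolae, was the 1 member on the higher side, at 332.6, 312.3, 283.6 and 318.1 against 354.9, 315.7, 350.5 and 494.8 RPKM (0.26). Cped1 is itself a member, with overlapping clones as given above.

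Chromatin and identity genes went both ways within each list. Polycomb subunits had a median of -0.01 over 26, and all 26 had a 95% interval within 2-fold. Eed, the core subunit that reads the Polycomb mark, was without overlap, at 50.3, 47.8, 47.0 and 55.7 RPKM in FOXP2 clones and 56.7, 59.7, 58.9 and 65.1 in FOXP2-CPED1 clones (log2 difference 0.26). Hox genes had a median of 0.09 over 9 and imprinted genes 0.06 over 11. Osteogenic, adipogenic and neuronal genes had -0.01 (0.01 after either other scaling), -0.05 and -0.03 over 5, 7 and 8. Without the 3 clones with mitochondrial rows at 0, the neuronal median was -0.44, with 2 of 7 higher, and the osteogenic median 0.15. With library quality weights the adipogenic median was 0.07. Single members ranged further, from -0.66 to 0.61 among imprinted genes and from -0.33 to 0.76 among adipogenic genes, where 6 of 11 and 2 of 7 had a 95% interval within 2-fold. The median of 38 cytosolic ribosomal protein genes was -0.02, or 0.11 with 32 higher without the 3 clones with mitochondrial rows at 0; Rps29 was the member set apart, at 479.4, 505.4, 430.9 and 491.9 RPKM against 635.1, 812.8, 515.8 and 743.2 (0.49, no overlap, limma adjusted p = 0.9999).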

How the data were processed

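RNA from 10 NIH3T3 cultures was sequenced, and 8 of them, 4 FOXP2 and 4 FOXP2-CPED1 clones, were compared. The authors deposited RPKM values, 1 column per library; reads were processed with HISAT2 and StringTie on mm9, per the submitters' processing notes. The sources used here do not give versions, annotation, strand setting or filters. Absolute depth is unknown, so no counting interval was computed.

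Rows naming no gene (3581) or joining several genes (987) were left out. For the 569 symbols with several rows, the values given are those of the row with the highest mean over the 8 clones. Abhd14a, Heph, Tspan5, Samd4, Rpsa-ps10, Egr1, Lox and Mast2 are among these symbols. Levels in their other rows are not given here. Rows with at least 1 RPKM in 2 of the 8 clones (11729) were fitted on log2(RPKM + 1), a scale that understates changes of low genes, with limma 3.58.1 in R 4.3.3 (empirical Bayes, trend on the mean, two-sided, Benjamini-Hochberg over all rows, threshold 0.05). The script was tested on simulated data. Single values were compared by exact permutation, which cannot go below p = 0.0286 here. Named genes were Foxp2, Cped1, the 10 smallest p and 5 largest differences per direction among gene symbols with a mean of at least 2 RPKM in a construct, 2 genes per list by p, and 3 per construct by clone SD; further list members were picked with their values in view. The members and lists were chosen with earlier results of these data known. Gene class and order come from GENCODE on GRCm38, a later build, for 99.7% of tested rows, so no coordinates are given.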

Additional observations from a re-analysis of the deposited data

Results flagged for a closer look

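In 17 of 306 groups of 4 clones examined (a named gene or list score in 1 construct), the highest or lowest clone stood apart by Dixon's criterion at the 95% level, which chance meets in about 1 in 20 groups.

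Most of these clones were FOXP2-CPED1 clone 4. Thbs1 was 12.08 RPKM there against 28.15 to 29.81 in the other FOXP2-CPED1 clones, Plau 17.89 against 4.604 to 5.686, and Dnajb9, a chaperone of the endoplasmic reticulum, 3.448 against 5.028 to 5.315. The mitotic kinase Ttk was 20.04 RPKM against 12.24 to 12.97, and Rrm1 was 84.9 against 42.91 to 47.02. Mast2 was listed at 6.178e-48 RPKM against 26.35 to 34.71, Rhox2h at 0.05946 against 0, and Paics at 0.002632 against values near 0. The score of the structural matrix list was -0.462 in this clone against 0.248 to 0.321, and that of the Hox list -0.275 against 0.12 to 0.149.

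In other FOXP2-CPED1 clones, mt-Nd6 was listed at 0 in clone 3 against 1036 to 1340 RPKM. Itgb4, an integrin of hemidesmosomes, was 13.46 RPKM in clone 1 against 21.79 to 24.02, and Slit3, a secreted guidance protein, was 1.843 there against 0.04382 to 0.2163. The corepressor Ctbp1 was 84.71 RPKM in clone 2 against 110.0 to 114.8. The cholesterol synthesis score was 0.217 in clone 3 against -0.251 to -0.186.

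Among FOXP2 clones, the Polycomb score was -0.0596 in clone 3 against 0.0318 to 0.0395, and the ribosomal protein score 0.172 in clone 2 against -0.0819 to -0.046.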

How the results depend on the processing

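The 0 adjusted calls by limma became 2 with library quality weights and 0 to 1 when 1 clone was left out. The weights put most of the FOXP2 side on FOXP2 clone 1. Genes with an unadjusted p under 0.05 numbered 2148 with library quality weights, 353 without the 3 clones with mitochondrial rows at 0 and 144 to 529 with 1 clone left out. Genes without overlap numbered 2337 without those 3 clones and 248 to 822 with 1 clone left out, as fewer samples overlap less often. The larger SD was among FOXP2 clones for 4540 genes without the 3 clones, where only FOXP2 clones 1 and 3 remain and their SD leans low. Clone numbers were taken not to pair the clones, which are independent per the series' design text. The deviations of same-numbered clones correlated from -0.238 to 0.345 across genes, and those of other pairs from -0.458 to 0.418. Genes are not replicates, so these values do not test pairing. With clone number as a replicate block 0 genes were called (smallest limma adjusted p = 1), as in the main fit.

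Of 2242 gene values under the alternatives, 29 in 17 genes reversed, and the cause was not tested. With library quality weights the log2 differences were -3.386 for mt-Nd6, -1.655 for Grb10, -0.06531 for Col18a1, -0.2025 for Gsta4, -0.1977 for Ttk, -0.09167 for Rrm1, 0.03504 for Ctbp1 and 0.1569 for Dlk1. Without the 3 clones they were -0.01777 for mt-Nd6, -0.06181 for Fgfrl1, -0.3195 for Fgf10, 0.1087 for Cyr61, -0.044 for Tgfbr2, -0.1209 for Nrp1, -0.1598 for Rbl2, 0.02617 for Foxj3 and -0.05099 for Hoxc5. With 1 clone left out the range was -0.5406 to 0.2691 for Cped1, -1.244 to 0.8175 for Grb10, -0.1037 to 0.1802 for Fgfrl1, -0.05018 to 0.35 for Fgf10, -0.02503 to 0.4628 for Pole, -0.08967 to 0.4041 for Rrm1, -0.01704 to 0.2838 for Rbl2 and -0.6334 to 0.03817 for Dlk1. Of the 42 list medians, 34 changed sign under some alternative. The fit of protein-coding rows alone was added after seeing the data and made 0 calls. Each construct has 4 clones and depth is unknown, which limits what could be detected.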
